A study of Homo sapiens with 6 samples.

Results

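The 44 genes described here encode lysosomal proteins, namely soluble hydrolases with their activators and cofactors, membrane proteins of the organelle, and the transcription factors *TFEB* and *TFE3*. They were taken by gene symbol from a deposited table of 60663 genes, and all 44 were among the 16920 genes with enough reads to be tested. *PPT1* and *ARSB* were chosen by their lower counts after *LTBP2* silencing, so their values are a description without a test. The other 42 genes were chosen by function, with earlier results of these data known. They were read to ask whether those falls were isolated or shared by other lysosomal genes. RNA was sequenced from CCD18Co cells, an established line of fibroblasts from normal human colon, grown with fetal bovine serum. Lipofectamine, a lipid reagent, delivered a pool of siRNAs against *LTBP2* (siLTBP2, 3 libraries) or a non-targeting pool (siNT, 3 libraries) for 6 h, and cells were collected at 48 h. Both groups were thus transfected with siRNA, no untransfected cells were sequenced, and only 1 pool was used against *LTBP2*. No source states that the 3 libraries of a group came from separate cultures, so p-values measure the spread between libraries, which may be technical.

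Lysosomes are acidic compartments in which hydrolases break down proteins, glycosaminoglycans, glycoproteins and lipids brought by endocytosis and autophagy. Most soluble hydrolases are made in the endoplasmic reticulum, tagged with mannose 6-phosphate in the Golgi apparatus and carried onward by mannose 6-phosphate receptors. In fibroblasts, which secrete and turn over collagen and proteoglycans, cathepsins and glycosaminoglycan-degrading enzymes take part in matrix breakdown. TFEB and TFE3 can switch on many lysosomal genes through a palindromic promoter element, and inherited loss of single hydrolases causes storage diseases.

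Levels are given as CPM, the reads of a gene scaled to a common library size, after TMM normalization. Fold changes are log2 ratios of siLTBP2 over siNT from edgeR's quasi-likelihood test, with p-values adjusted by Benjamini-Hochberg over all 16920 genes. The libraries held 44663424 to 53576899 counts. *LTBP2*, the silenced gene, stood at 24.97, 23.1 and 21.2 CPM in siNT replicates 1 to 3 and at 6.49, 8.61 and 6.00 CPM in siLTBP2, which left 30.4% of the siNT level (log2 fold change -1.72, standard error 0.15, edgeR adjusted p = 6.6e-05). All 6 fibroblast markers examined (*COL1A1*, *COL1A2*, *COL3A1*, *VIM*, *PDGFRB* and *THY1*) were above 1 CPM. Their summed level ran from 9379 to 12480 CPM in siNT and from 9572 to 13460 CPM in siLTBP2. Within this sum, which *VIM* and the collagen genes dominated, *PDGFRB*, a receptor gene named after its values were seen, fell from between 158.3 and 177.7 CPM to between 94.9 and 118.8 CPM (log2 fold change -0.60, edgeR adjusted p = 0.00252), and the other 5 did not pass. None of 4 epithelial markers reached 1 CPM. Of 5 leukocyte markers, 1 did, with sums of 0.709 to 0.927 CPM in siNT and 1.33 to 1.73 CPM in siLTBP2. It was *CSF1R*, named after its values were seen, which was higher in siLTBP2 (log2 fold change 0.92, edgeR adjusted p = 0.0299). The part of these levels in the results was not tested. Of 3 endothelial markers, 1 reached 1 CPM, with sums of 1.48 to 2.01 CPM in siNT and 0.797 to 1.35 CPM in siLTBP2.

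*PPT1* encodes palmitoyl-protein thioesterase 1, which removes fatty acids from modified proteins in the lysosome. The gene (ENSG00000131238) occupies positions 40072710 to 40097260 of chromosome 1 (GRCh38, minus strand) and has 9 exons in its canonical transcript. It stood at 183.5, 152.2 and 182.3 CPM in siNT replicates 1 to 3 and at 31.3, 40.9 and 37.4 CPM in siLTBP2. The lowest siNT library was thus far above the highest siLTBP2 library. The mean went from 172.7 ± 17.7 to 36.5 ± 4.85 CPM (SD, n = 3), which is 21.2% of the siNT level and a log2 fold change of -2.24. Among the 16920 tested genes, *PPT1* ranked 16th from the lowest log2 fold change. With each library left out in turn, its log2 fold change lay between -2.33 and -2.14.

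*ARSB* encodes arylsulfatase B, which takes sulfate off dermatan sulfate and chondroitin sulfate. The gene (ENSG00000113273) occupies positions 78777209 to 78986087 of chromosome 5 (minus strand) and has 8 exons. It stood at 54.9, 51.8 and 51.9 CPM in siNT and at 15.7, 18.0 and 15.5 CPM in siLTBP2, so that the groups were widely separated. The mean went from 52.9 ± 1.78 to 16.4 ± 1.37 CPM (SD, n = 3), or 31.0% of siNT, with a log2 fold change of -1.69 and rank 62 from the lowest. With single libraries left out it lay between -1.77 and -1.65. In these bulk libraries, fewer cells that express a gene and less RNA per cell cannot be told apart.

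The word GCACCCA, 7 bases long, was found earlier, on these same libraries, to be carried in the 3′ untranslated region (UTR) by genes that were lower in siLTBP2, so its presence is described here without a test. In canonical GENCODE 44 transcripts, it was searched on the transcript strand only. *PPT1* and *ARSB* both held 2 copies. *NEU1*, which encodes the sialidase neuraminidase 1, held 3 copies. The sites are shown because these genes held more than 1 copy, in GRCh38 on the minus strand, with the word in capitals.
*PPT1* site 1, chr1:40073461-40073489: ttgcttctgcaGCACCCActttgtctcct
*PPT1* site 2, chr1:40073400-40073428: ggagggaagtaGCACCCAaattaagttgc
*ARSB* site 1, chr5:78778899-78778927: tcccacctcagGCACCCAaatagctggaa
*ARSB* site 2, chr5:78778023-78778051: ggggatgttctGCACCCAgtggacttcaa
*NEU1* site 1, chr6:31858725-31858753: tatgagccaccGCACCCAgcctacattcc
*NEU1* site 2, chr6:31858573-31858601: gtcttgctctgGCACCCAggctagagtgc
*NEU1* site 3, chr6:31858181-31858209: cttgagcccctGCACCCAgcctgtaagat

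Beyond these, *CTSS*, *PSAP* and *HEXA* held 1 copy each, so that 6 of the 44 genes (13.6%) and 4 of the 42 (9.52%) carried the word. Among all 12461 tested genes with an annotated 3′ UTR, 1455 (11.7%) did. The 4 carriers among the 42 had log2 fold changes of -0.66 (*CTSS*), -0.07 (*HEXA*), -0.0098 (*PSAP*) and 0.35 (*NEU1*), and none of them passed the test. Of all tested genes, the 11006 without a copy had a median log2 fold change of 0.02, the 1263 with 1 copy of -0.14 and the 166 with 2 copies of -0.23. The share of genes lower at an adjusted p below 0.05 was 9.33%, 26.5% and 38.0% in these 3 groups. The word was found among lower genes of these same libraries, so larger shares among its carriers, here and below, follow from that choice. With 3 or more copies, as in *NEU1*, the 26 genes had a median of -0.05, and 26.9% of them were lower. Of the 192 genes with 2 or more copies, 10 (5.21%) were lower by more than 2-fold at an adjusted p below 0.01, *PPT1* and *ARSB* among them, beside 5.07% of genes with 1 copy and 0.927% of genes with none.

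**Figure D1:**
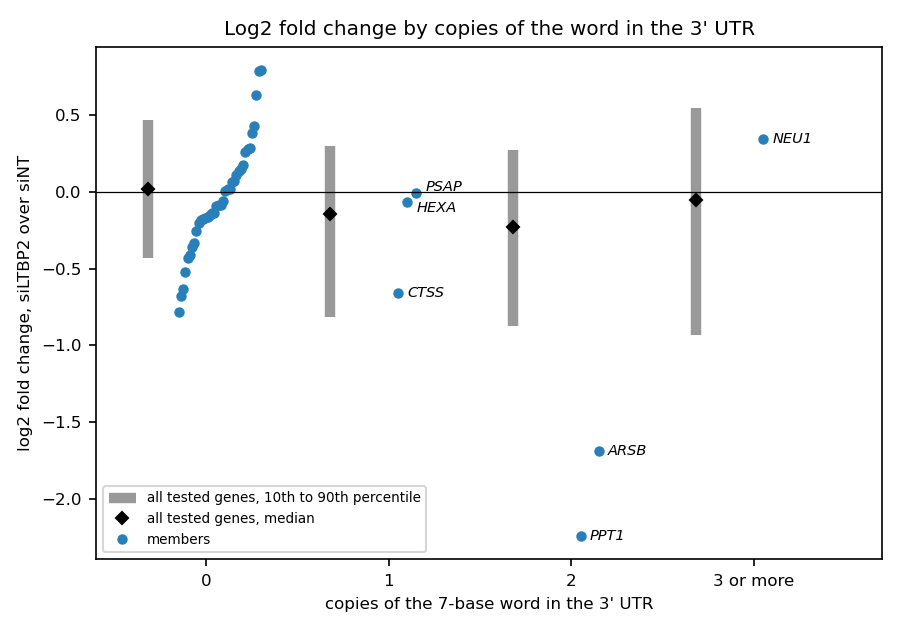
Log2 fold change of siLTBP2 over siNT (vertical axis) by the number of copies of GCACCCA in the 3′ UTR (horizontal axis), with the 44 lysosomal genes as blue points, the medians of all tested genes as black diamonds and the 10th to 90th percentiles as grey bars. *PPT1* (-2.24) and *ARSB* (-1.69) lie below the grey bar of genes with 2 copies, and *NEU1*, with 3 copies, lies at 0.35.

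Among the other 42 genes, 5 were lower in siLTBP2 (*IDS*, *TFEB*, *MAN2B1*, *CTSK* and *GAA*) and 3 were higher (*CTSB*, *LAMP2* and *CTSL*) at an edgeR adjusted p below 0.05, while 34 did not pass. The shares of 11.9% lower and 7.14% higher stood beside 9.51% and 9.76% of all tested genes. None of the 42 had an adjusted p below 0.01 together with a change of more than 2-fold, where 2.57% of all genes did. That count was also 0 with DESeq2 and with edgeR's likelihood ratio test, although 16 of the 42 (38.1%) had an unadjusted p below 0.05, beside 32.3% of all genes. The siLTBP2 libraries lay entirely below the siNT libraries in 8 genes and entirely above in 9, together 40.5% of the 42 beside 37.0% of all genes. The median log2 fold change of the 42 was -0.08, with an interquartile range of -0.20 to 0.15, while all genes had a median of -0.01 and an interquartile range of -0.23 to 0.22. Of the 42 values, 24 were below 0 and 18 above, and they ran from -0.78 to 0.79. The log2 fold changes of *PPT1* and *ARSB* lay outside the range of the other 42 genes. Since both were chosen by their falls, their place at the low end follows at least in part from that choice. For 32 of the 34 genes that did not pass, the 95% interval lay within a 2-fold change in either direction, and for 24 it lay within 1.5-fold. The exceptions to the 2-fold limit were *CTSS* and *FUCA1*, both with a mean under 5 CPM.

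**Figure D2:**
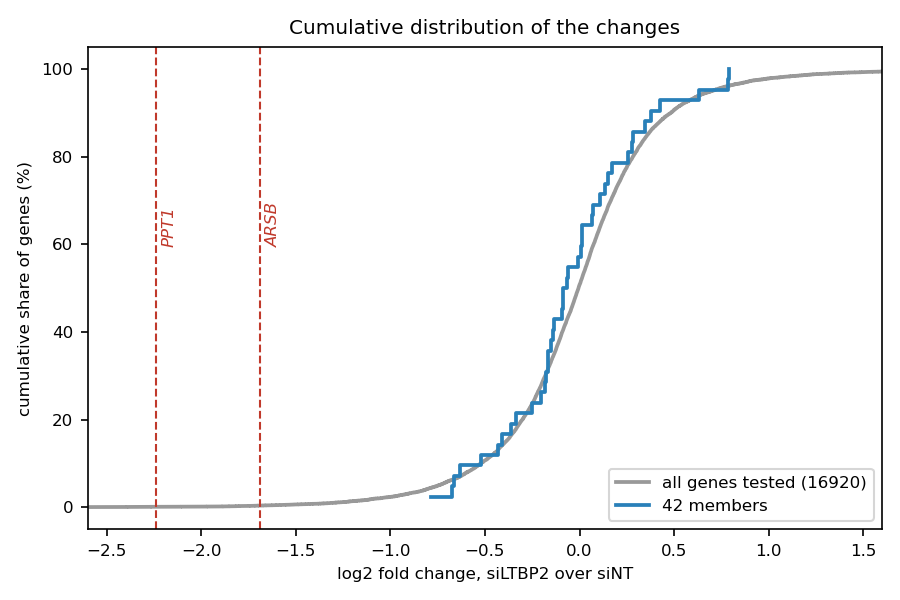
Cumulative share of genes (%, vertical axis) by log2 fold change of siLTBP2 over siNT (horizontal axis, which leaves out the extreme ends of all genes), for all 16920 tested genes in grey and for the 42 lysosomal genes in blue, with dashed lines at *PPT1* and *ARSB*. The blue curve runs close to the grey one between -0.78 and 0.79. Both dashed lines, at genes chosen by their falls, lie to the left of the blue curve.

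Cathepsins, the lysosomal proteases, formed the largest class, with 11 genes. *CTSB* and *CTSL* rose, *CTSK* fell and 8 did not pass. *CTSB* (chromosome 8, 11842524 to 11869533), which encodes the cysteine protease cathepsin B, stood at 662.8, 629.4 and 694.0 CPM in siNT and at 1018, 1066 and 992 CPM in siLTBP2. Its groups did not overlap, and its mean rose from 662.1 ± 32.3 to 1025 ± 37.3 CPM (SD, n = 3). The log2 fold change was 0.63 (standard error 0.09, edgeR adjusted p = 0.00114). *CTSL* (chromosome 9, 87724051 to 87731469), which encodes the endopeptidase cathepsin L, stood at 69.3, 66.9 and 81.3 CPM in siNT and at 128.6, 107.5 and 140.1 CPM in siLTBP2. The groups were again separate, and the log2 fold change was 0.79 (standard error 0.11, edgeR adjusted p = 0.00105). Both kept their call with every library left out in turn, at 0.60 to 0.67 for *CTSB* and 0.71 to 0.89 for *CTSL*.

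*CTSK* (chromosome 1, 150794880 to 150809577), which encodes the collagen-degrading cathepsin K, stood at 46.9, 50.4 and 40.5 CPM in siNT and at 39.4, 33.5 and 29.3 CPM in siLTBP2. The highest siLTBP2 library was just below the lowest siNT library. Its level fell to 74.2% of siNT, with a log2 fold change of -0.43 (standard error 0.12, edgeR adjusted p = 0.0335). That call was lost without siNT replicate 1 (adjusted p = 0.0803 from edgeR), siNT replicate 2 (0.12), siLTBP2 replicate 2 (0.098) or siLTBP2 replicate 3 (0.081). *CTSS*, the protease cathepsin S best known from antigen-presenting cells, had a log2 fold change of -0.66 (edgeR adjusted p = 0.0743). The aspartic protease gene *CTSD* was at -0.09, and *CTSA*, which encodes the protective protein of neuraminidase and beta-galactosidase, was at -0.14. *CTSF* (-0.25), *CTSH* (-0.17), *CTSZ* (-0.06), *CTSC* (0.06) and *CTSO* (0.13) did not pass either. The summed level of the cathepsins went from 1407 ± 63.4 to 1797 ± 46.2 CPM (SD, n = 3). In this sum *CTSB*, the most abundant gene, alone went from 662.1 to 1025 CPM. Of the 11 log2 fold changes, 7 were below 0 and 4 above, with a median of -0.085.

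The 8 other genes for sulfatases and glycosaminoglycan breakdown, the class of *ARSB*, held 1 gene that fell, *IDS*, and none that rose. *IDS* (chromosome X, 149476988 to 149521096) encodes iduronate 2-sulfatase, which acts on dermatan sulfate, as arylsulfatase B does, and on heparan sulfate. It stood at 29.3, 19.5 and 26.1 CPM in siNT and at 14.1, 15.1 and 14.2 CPM in siLTBP2. The siNT libraries varied more than the siLTBP2 libraries, but the groups did not overlap. The mean fell from 24.9 ± 5.03 to 14.5 ± 0.514 CPM (SD, n = 3), or 58.1% of siNT, with a log2 fold change of -0.78 (standard error 0.14, edgeR adjusted p = 0.00382). It was the lowest of the 42 log2 fold changes, and its call was kept with every library left out, at -0.93 to -0.66. Its near-identical pseudogene *IDSP1* had at most 0.111 CPM in any library. *IDUA*, the iduronidase that acts beside it, was at -0.36 with an edgeR adjusted p of 0.18.

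The sulfatase genes *GALNS* (-0.20), *ARSA* (-0.17) and *SGSH* (-0.15) and the glucuronidase gene *GUSB* (-0.09) did not pass. *NAGLU* (0.17) and *HGSNAT* (0.28, edgeR adjusted p = 0.0613), which act on heparan sulfate, did not pass either. The siLTBP2 libraries lay entirely below siNT in *GALNS* and *GUSB* and entirely above in *NAGLU* and *HGSNAT*. With *ARSB* included, the class had sums of 388.9 ± 28.3 CPM for siNT and 340.5 ± 19.99 CPM for siLTBP2 (SD, n = 3). Of these sums, *ARSB*, which was chosen by its fall, made up 52.9 CPM in siNT and 16.4 CPM in siLTBP2.

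**Figure D3:**
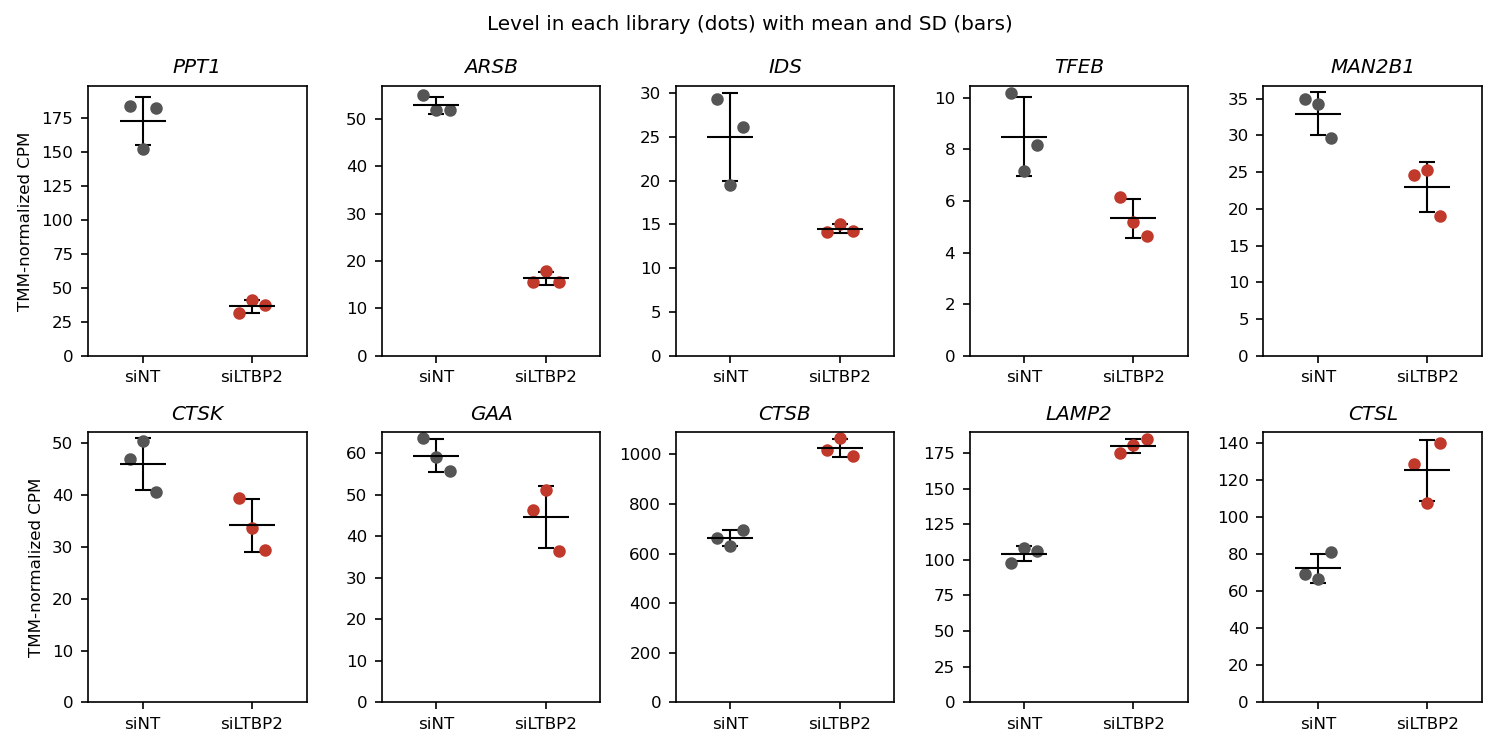
TMM-normalized level (CPM, vertical axes starting at 0) in each of 3 siNT and 3 siLTBP2 libraries for *PPT1*, *ARSB* and the 8 other lysosomal genes with an adjusted p below 0.05, with points for libraries, long lines for means and bars for SD. In all 10 genes the groups do not overlap, with the widest relative gap in *PPT1* (21.2% of siNT left) and narrow gaps in *CTSK* and *GAA*.

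Of 8 glycosidase genes, *MAN2B1* and *GAA* fell and none rose. *MAN2B1* (chromosome 19, 12646511 to 12666742) encodes lysosomal alpha-mannosidase, which trims the sugars of glycoproteins. It stood at 35.0, 34.3 and 29.6 CPM in siNT and at 24.6, 25.3 and 19.0 CPM in siLTBP2, without overlap. Its log2 fold change was -0.52 (standard error 0.12, edgeR adjusted p = 0.0149), and the level was 69.7% of siNT. The call was lost without siNT replicate 1 (edgeR adjusted p = 0.0507) or siNT replicate 2 (0.0583).

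*GAA* (chromosome 17, 80101533 to 80119881) encodes acid alpha-glucosidase, which degrades glycogen. It stood at 63.7, 59.0 and 55.7 CPM in siNT and at 46.3, 51.3 and 36.5 CPM in siLTBP2, where replicate 3 was the lowest library. The log2 fold change was -0.41 (standard error 0.12, edgeR adjusted p = 0.0383), and 75.2% of the siNT level was left. The call was lost without siNT replicate 1 (edgeR adjusted p = 0.115), siNT replicate 2 (0.0929), siLTBP2 replicate 1 (0.0655) or siLTBP2 replicate 3 (0.0832), and without the last of these the log2 fold change was -0.28. The hexosaminidase subunit gene *HEXA* (-0.07), the galactosidase genes *GLB1* (0.01) and *GLA* (0.07), *MANBA* (0.11) and *NEU1* (0.35) did not pass. *FUCA1*, the fucosidase gene, had the lowest level per kilobase of the 44, and its log2 fold change of -0.63 had an edgeR adjusted p of 0.31.

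None of the 6 genes for lipid breakdown and its cofactors passed the test. Their log2 fold changes were -0.18 for *SMPD1* (acid sphingomyelinase), -0.18 for *ASAH1* (acid ceramidase), -0.09 for *LIPA* (lysosomal acid lipase), -0.0098 for *PSAP* (the saposin precursor), 0.02 for *GM2A* (the GM2 activator) and 0.38 for *NPC2* (a cholesterol carrier). Their summed levels were 794.7 CPM in siNT and 778.4 CPM in siLTBP2. Neither *PPT2*, which encodes a thioesterase related to *PPT1*, at 0.42 (edgeR adjusted p = 0.0698), nor *TPP1*, a peptidase gene that like *PPT1* is mutated in neuronal ceroid lipofuscinosis, at 0.29 (0.131), passed the test. In *PPT2* the siLTBP2 libraries lay above the siNT libraries. It shares 49.3% of its exon bases with the readthrough gene *PPT2-EGFL8* on the same strand, which had a mean of 0.251 CPM.

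Of 5 membrane protein genes, *LAMP2* rose. It lies on chromosome X (120426148 to 120469365) and encodes a heavily glycosylated protein of the lysosomal membrane that takes part in chaperone-mediated autophagy. It stood at 98.1, 108.2 and 106.5 CPM in siNT and at 175.0, 180.3 and 184.8 CPM in siLTBP2. The libraries of each group lay close together and far from the other group. The log2 fold change was 0.79 (standard error 0.08, edgeR adjusted p = 0.000159), the smallest adjusted p among the 42 genes, and lay between 0.74 and 0.82 with each library left out. Its relative *LAMP1* was at 0.26 (edgeR adjusted p = 0.128), with all siLTBP2 libraries above the siNT libraries. The cholesterol exporter gene *NPC1* (0.0058), *CLN3* (-0.14) and the calcium channel gene *MCOLN1* (-0.34) did not pass.

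*TFEB* (chromosome 6, 41683978 to 41736259), a transcription factor gene expressed at a low level here, fell. It stood at 10.2, 7.15 and 8.18 CPM in siNT and at 6.15, 5.20 and 4.63 CPM in siLTBP2, and the groups were separate. The log2 fold change was -0.68 (standard error 0.17, edgeR adjusted p = 0.0182), with 62.6% of siNT left. The call was lost without siNT replicate 1 (log2 fold change -0.53, edgeR adjusted p = 0.0697) or siLTBP2 replicate 2 (-0.67, 0.0618). *TFE3*, which acts on the same promoter element, stood at 134.9, 124.5 and 136.8 CPM in siNT and at 147.3, 152.6 and 140.2 CPM in siLTBP2. Its siLTBP2 libraries were all above siNT, but the log2 fold change of 0.15 did not pass (95% interval -0.03 to 0.33, edgeR adjusted p = 0.233). These are RNA levels, and the proteins are regulated by phosphorylation and location in the cell, which were not measured.

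**Figure D4:**
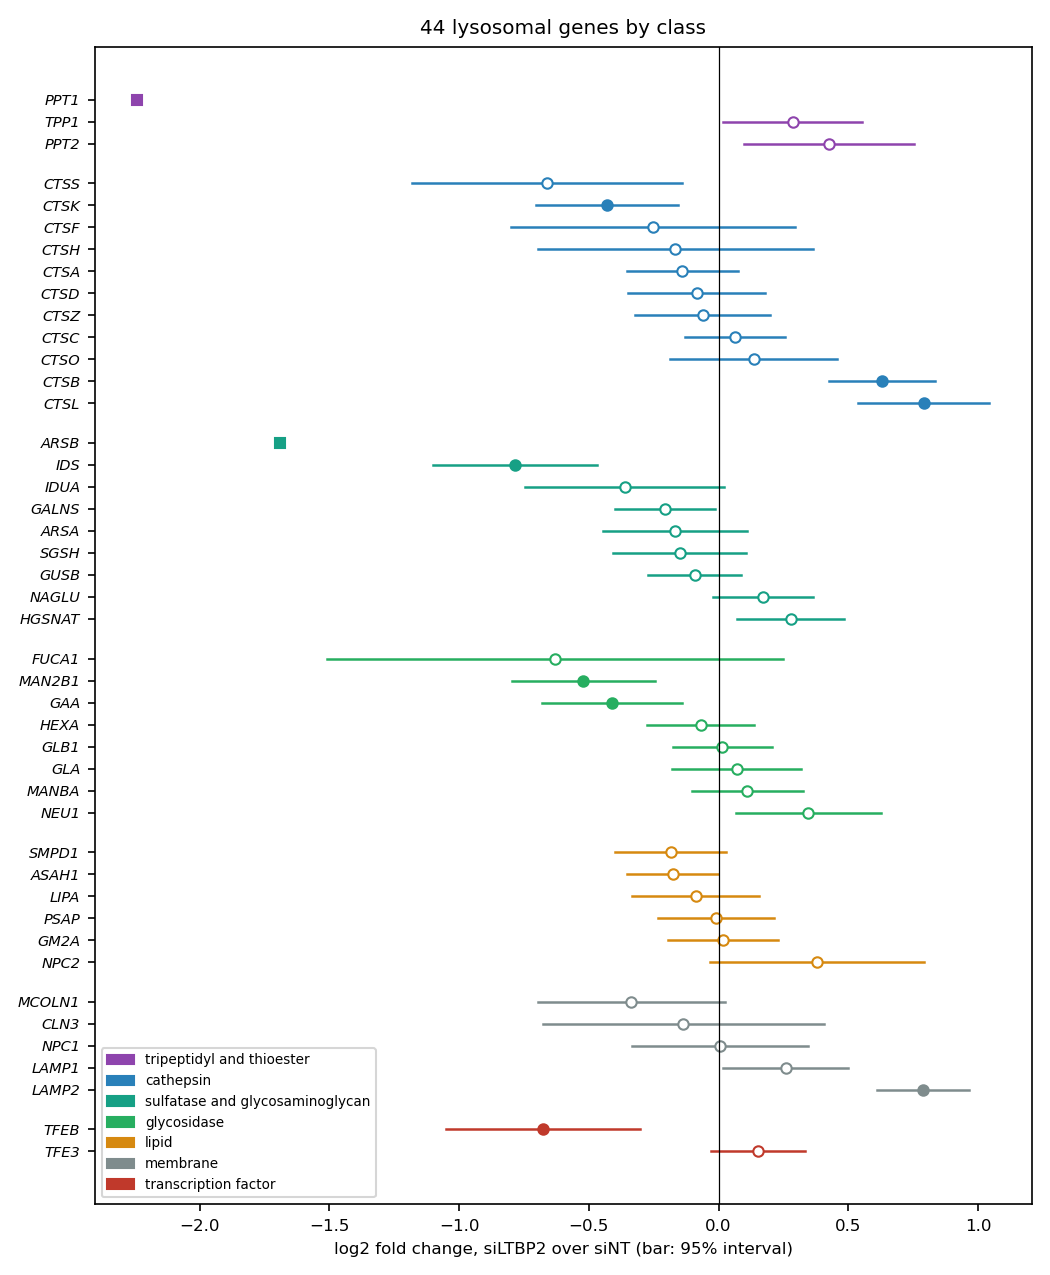
Log2 fold change of siLTBP2 over siNT (horizontal axis) for the 44 lysosomal genes, by class in color, with 95% intervals for the 42 genes that were tested, filled circles at an adjusted p below 0.05 and open circles above it, and squares without an interval for *PPT1* and *ARSB*, which were chosen by their falls. The classes with several genes spread to both sides of 0, and the squares lie at -2.24 and -1.69, to the left of every circle.

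The palindrome TCACGTGA and its core CACGTG, which E-box factors such as TFEB bind, were searched in RefSeq promoters of GRCh38.p14, from 250 bases before to 50 after the start. Both read the same on both strands, and every longer match holds the core. Of the 44 genes, 31 had a promoter listed. Those without one included *CTSB* and *LAMP2*, which rose, and *CTSK*, which fell, so their promoters were not searched. TCACGTGA was present in 6 of these (19.4%) and in 240 of the 10857 tested genes with a promoter (2.21%), or 321 of all 27305 genes with a promoter (1.18%). CACGTG was present in 10 of the 31 (32.3%), in 12.4% of the tested genes and in 8.78% of all. A match is a description of the letters and shows no binding. Of the 6 genes with the longer palindrome, *GAA* fell, and *CLN3*, *CTSA*, *GALNS*, *LAMP1* and *MCOLN1* did not pass the test, at log2 fold changes from -0.34 to 0.26. *ARSB* had a match to the core, and *PPT1* and *TFEB* had none in this window. The sites of *GAA*, which fell, of *LAMP1* and *MCOLN1*, which had a pair of palindromes each, and of *ARSB* are shown 5′ to 3′ along the gene, with the match in capitals.
*GAA* site 1, chr17:80101494-80101521, plus strand: ggaggccgcgTCACGTGAcccaccgcgg
*GAA* site 2, chr17:80101539-80101566, plus strand: ctcccgccggTCACGTGAcccgcctctg
*LAMP1* site 1, chr13:113297200-113297227, plus strand: acccgcgggaTCACGTGAcgcccgggcg
*LAMP1* site 2, chr13:113297227-113297254, plus strand: gcggcgcagcTCACGTGAcaagcgctgc
*MCOLN1* site 1, chr19:7522572-7522599, plus strand: ccagaggcggTCACGTGAggggctctgg
*MCOLN1* site 2, chr19:7522599-7522626, plus strand: ggctaccgggTCACGTGAccgaggcaca
*ARSB* core, chr5:78986103-78986128, minus strand: attcaataagCACGTGactaaaggat

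By level per kilobase of transcript in siNT, *CTSB* was first of the 44 genes at 177.4 CPM per kilobase, followed by *PSAP* (149.9), *CTSC* (144.3), *CTSA* (114.3), *LAMP1* (109.9) and *PPT1* (75.6). *ARSB* was 29th at 10.9, and *CTSH* (0.611), *CLN3* (0.491) and *FUCA1* (0.300) were the lowest. *PPT1* was thus among the most abundant of these 44 RNAs in the siNT libraries. The summed level of all 44 genes was 4145, 3673 and 4103 CPM in siNT and 4381, 4409 and 4211 CPM in siLTBP2. Its mean went from 3974 ± 261 to 4334 ± 107 CPM (SD, n = 3). Without *CTSB*, the other 43 genes summed to 3312 ± 235 and 3308 ± 78.0 CPM in the respective groups, a sum that holds the falls of *PPT1* and *ARSB*. Without *PPT1* and *ARSB*, but with *CTSB*, the 42 other genes went from 3748 ± 242.5 to 4281 ± 106.5 CPM.

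Genes around the hydrolases were read from 7 further lists of lysosomal and autophagy genes, with 155 genes tested. Of these, 20 (12.9%) fell and 15 (9.68%) rose, beside 9.51% and 9.76% of all tested genes. The median log2 fold change of the 155 genes was 0.03. Of 20 genes of the proton pump, which acidifies the lysosome, 3 fell and none rose, among the former *ATP6V0E2* (log2 fold change -0.72, edgeR adjusted p = 0.00249). *ATP6V0D2*, another subunit gene and named after its values were seen, had the lowest log2 fold change of the 155 genes, at -1.88 (edgeR adjusted p = 0.0397), which is below that of *ARSB*. It stood at 2.44, 0.851 and 4.14 CPM in siNT and at 0.321, 0.444 and 1.21 CPM in siLTBP2, so that the groups overlapped. Its call was lost without siNT replicate 1 (log2 fold change -1.90, edgeR adjusted p = 0.0761), siNT replicate 3 (-1.28, 0.133), siLTBP2 replicate 1 (-1.57, 0.0891) or siLTBP2 replicate 2 (-1.66, 0.131), and with DESeq2 (-1.90, adjusted p = 0.0801). Of 29 other hydrolase genes, 4 fell and 4 rose. The sulfatase gene *ARSK* rose by 0.66 on the log2 scale, while the heparanase gene *HPSE* fell by 0.72 and the dipeptidyl peptidase gene *DPP7* fell by 0.52. Of 29 other membrane protein genes, 4 fell and 1 rose, and the peptide transporter gene *ABCB9* fell by 0.64.

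Of 13 genes for enzyme delivery, 2 fell and 3 rose. *M6PR*, the gene of a mannose 6-phosphate receptor, rose from 85.1 ± 7.66 to 139.0 ± 10.9 CPM (SD, n = 3, log2 fold change 0.71, edgeR adjusted p = 0.000717). *SUMF1*, whose product activates sulfatases such as arylsulfatase B, rose by 0.44. Of 18 nutrient-sensing genes, 2 fell and 2 rose, and *MLST8*, a subunit gene of the mTOR complexes, fell from 45.1 ± 5.78 to 20.3 ± 1.58 CPM (SD, n = 3, log2 fold change -1.15, edgeR adjusted p = 0.000134). *MITF*, a relative of *TFEB* and *TFE3*, fell by 0.49. Neither of the 2 cystatin genes, which encode cathepsin inhibitors, passed the test. Of 44 autophagy genes, 5 fell and 5 rose. *ULK1*, the kinase gene that starts autophagy, fell from 42.2 ± 4.08 to 19.8 ± 4.08 CPM (SD, n = 3, log2 fold change -1.09, edgeR adjusted p = 0.000715), and *ATG13*, which encodes its partner, fell by 0.81. *VPS41*, of the complex that tethers vesicles to lysosomes, fell by 0.49, and *EPG5*, for a tether of autophagosomes, rose by 0.55. *MLST8* and *ULK1* were the only genes of the 155 that passed an adjusted p of 0.01 with a change of more than 2-fold. Of all tested genes, 2.57% did. The genes named from these lists, *ATP6V0D2* excepted, kept their adjusted p below 0.05 with each library left out. The word GCACCCA was in the 3′ UTR of 20 of the 155 genes, beside 11.7% of all tested genes with a 3′ UTR. It was in 7 of the 20 that fell and in 1 of the 15 that rose. Over all tested genes, 405 of the 1455 carriers were lower and 100 higher. Among the 11006 genes without a copy, 1027 were lower and 1394 higher. Of the genes named here, *ATP6V0E2*, *ATP6V0D2*, *HPSE*, *ABCB9* and *MLST8* carried it. As the word was found among lower genes of these same libraries, this is a description without a test.

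Without siNT replicate 1, 2 of the 42 genes were lower (*IDS* and *CTSS*) and 5 were higher (*CTSB*, *CTSL*, *LAMP2*, *HGSNAT* and *PPT2*), beside 6.18% and 6.46% of all genes in that fit. Without siNT replicate 2, *IDS* and *TFEB* were the lower genes, and the same 3 genes as with all libraries were higher, beside 7.20% and 6.93% of all genes. *IDS*, *CTSB*, *CTSL* and *LAMP2* passed in all 6 fits with a library left out. Whether reads were counted by strand is not given in the sources used here. Of the 44 genes, 14 share exon bases with another tested gene, 10 of them with a gene on the opposite strand, so reads of these may be divided differently. *PPT1*, *ARSB* and the 8 genes that passed the test share none.

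**Figure D5:**
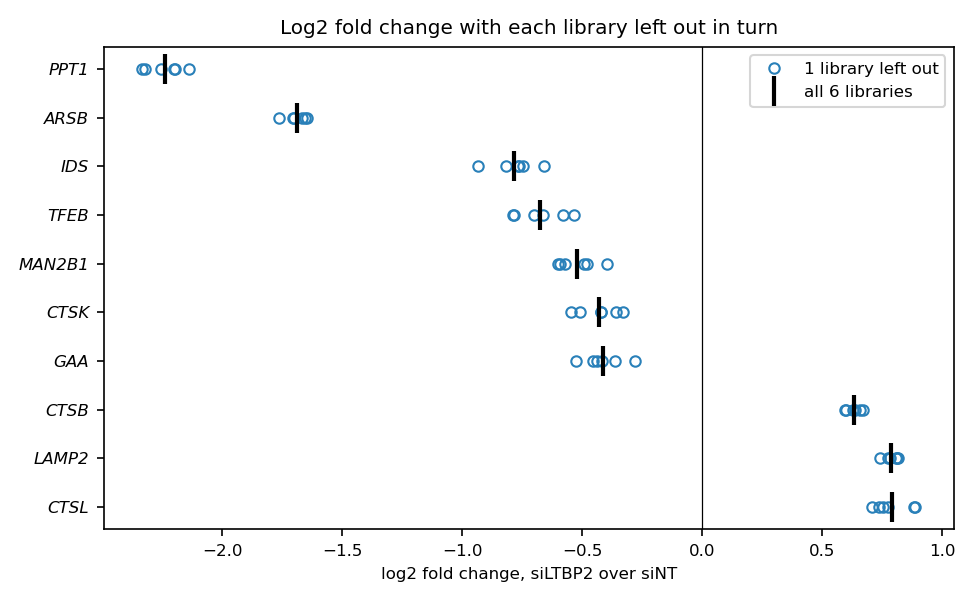
Log2 fold change of siLTBP2 over siNT (horizontal axis) for *PPT1*, *ARSB* and the 8 other lysosomal genes with an adjusted p below 0.05, with a black bar for all 6 libraries and open circles for each fit with 1 library left out. *PPT1* stays between -2.33 and -2.14 and *ARSB* between -1.77 and -1.65, below every circle of the other 8 genes. Both were chosen by their falls.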

How the data were processed

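RNA of 6 CCD18Co libraries (3 siNT, 3 siLTBP2) was sequenced as stranded libraries after removal of ribosomal RNA. The authors deposited raw counts of reads per gene, without normalization. The submitters' processing notes name bcl2fastq, STAR 2.7.1a, HTSeq 0.11.2 and GRCh38. For the annotation release and the counting by strand, nothing is given in the sources used here.

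The counts were tested with the two-sided quasi-likelihood test of edgeR 4.0.16 (R 4.3.3; glmQLFit, glmQLFTest) without a block, after filterByExpr and TMM, over 16920 of 60663 genes (27067 had 0 in every library). A standard error is the log2 fold change over the root of the F statistic, and intervals are 95% intervals. Libraries held 44663424 to 53576899 counts, which limits the precision most for the 6 members under 5 CPM. The steps were tested on simulated data. Libraries of a group differed by more than sampling noise (chi-square per degree of freedom 28.0 to 55.0), so none was counted as a repeat.

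The members and lists were chosen with earlier results of these data known. All 44 members are given. Values of each library are given for *PPT1*, *ARSB*, members with an adjusted p below 0.05, *TFEB* and *TFE3*. From each further list, up to 4 genes of smallest p among those with an adjusted p below 0.01 are named, and *LTBP2* is named as the check of the knockdown. A further gene that this rule names is not reported here. Positions, exons and UTRs came from GENCODE 44, which holds 60462 of the identifiers and the same start for 43 members (*GAA* differs, and its GENCODE 44 position is printed), and promoters from RefSeq.

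Alternatives were the likelihood ratio test, DESeq2 1.42.0, RLE and total-count scaling, no filter, at least 1 CPM in 3 libraries, a block for the replicate number and leaving out each library.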

Additional observations from a re-analysis of the deposited data

How the results depend on the processing

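With other tests, filters and scalings and no library left out, the 5 lower and 3 higher calls of the 42 members were kept. The count of higher members moved from 3 to 5 with the likelihood ratio test and to 6 with no low-count filter. Total-count scaling shifted the median of all genes to -0.04 and turned the sign of *GLB1* (-0.0212), *GM2A* (-0.0205) and *NPC1* (-0.0268), and no filter turned that of *NPC1* (-0.0077). The filter of 1 CPM left out *FUCA1* and *CLN3*. *CTSS* passed with the likelihood ratio test (adjusted p = 0.0432 from edgeR), DESeq2 (0.0299) and no filter (0.00707).

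With each library left out in turn, lower members numbered 2 to 5 and higher members 3 to 5, lower genes of the further lists 13 to 18 and higher ones 8 to 14, while 6.18% to 7.64% of all genes were lower and 5.97% to 8.31% higher. The lower members numbered 2 without siNT replicate 1 or 2, and 3 without siLTBP2 replicate 2. The median log2 fold change of the members ran from -0.10 to 0.0017, the last without siNT replicate 3. The sign turned for members near 0, with ranges of -0.18 to 0.0281 (*CTSZ*), -0.0864 to 0.0408 (*PSAP*), -0.0268 to 0.15 (*GLA*), -0.0486 to 0.0477 (*GLB1*), -0.0453 to 0.0819 (*GM2A*), -0.14 to 0.11 (*NPC1*), -0.22 to 0.0042 (*CTSD*), -0.34 to 0.0036 (*CTSH*), -0.25 to 0.0045 (*CLN3*) and -0.17 to 0.0304 (*LIPA*). For these changes the cause was not tested.

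With the replicate number as a block, 8 members were lower and 9 higher, beside 17.9% and 18.4% of all genes, and 36 genes of the further lists were lower and 32 higher. Members added were *CTSS*, *GALNS* and *MCOLN1* (lower) and *HGSNAT*, *LAMP1*, *NEU1*, *NPC2*, *PPT2* and *TPP1* (higher). The labels do not say what a shared number marks, so the libraries were not taken as paired. Across genes, the deviations of libraries with the same number had correlations of 0.30, 0.08 and 0.43. Those of libraries with different numbers ran from -0.39 to 0.10. Whether equal numbers mark a shared effect was not tested, and the counts of calls depend on this choice. None of the 42 members passed the adjusted p of 0.01 with a 2-fold change in any of these settings.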
